A study of Homo sapiens with 18 samples.

Results

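The mRNAs of the mitochondrial ribosomal proteins were followed in MCF10A and hTERT RPE-1 cells after transfection of mimics of hsa-miR-28-5p (miR-28) or hsa-miR-708-5p (miR-708). Members were the genes whose symbol is MRPL or MRPS followed by a number and, in some cases, a letter. The same 78 genes were found in both tables, out of 15358 genes listed for MCF10A and 15257 for RPE-1, and all 78 reached the level required for testing in both lines. They comprised 49 MRPL and 29 MRPS symbols. Grouped by subunit, 27 were counted with the small subunit and 51 with the large subunit, because MRPS18A and MRPS30 sit in the large subunit despite their names. MRPS36, also named KGD4, was kept because its symbol meets the rule, and it is counted with the small subunit. Its product is, however, now described as a component of the alpha-ketoglutarate dehydrogenase complex. The genes lay on 21 chromosomes, with no more than 8 on any of them.

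MCF10A is an immortalized, non-tumorigenic breast epithelial line, and hTERT RPE-1 is a retinal pigment epithelial line immortalized with telomerase. Each line received a non-targeting siRNA (siNT), the miR-28 mimic or the miR-708 mimic at 30 nM, and RNA was taken after 72 h. Each of the 6 groups held 3 biological replicates, giving 18 polyA+ RNA-seq libraries, numbered 7 to 9 in MCF10A and 1 to 3 in RPE-1. All groups, siNT included, were therefore transfected with a small RNA duplex, and within a line both mimics were compared with the same 3 siNT libraries.

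Mitochondrial ribosomes make the few proteins that the mitochondrial genome encodes, all of them subunits of the respiratory chain and the ATP synthase. Their RNAs come from the mitochondrial genome, whereas every one of their proteins is encoded in the nucleus, made on cytosolic ribosomes and imported. The small subunit binds the mRNA and decodes it, and the large subunit joins the amino acids and feeds the chain towards the inner membrane. Part of the proteins have counterparts in the bacterial ribosome, and the others were added during the evolution of mitochondria.

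The mimics carry the same seed, and their mature sequences are shown because any direct pairing with a member's mRNA would start from it. The seed, bases 2 to 8, is in capitals.
hsa-miR-28-5p: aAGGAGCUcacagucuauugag
hsa-miR-708-5p: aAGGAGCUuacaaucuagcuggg
The first 8 bases were identical, and the sequences diverged after them. A site of 7 bases that pairs with this seed (AGCTCCT or GCTCCTA) was present in the annotated 3′ UTR of 8 of the 78 members (10.3%), against 18.7% of the 13774 tested genes with an annotated 3′ UTR. The members' 3′ UTRs were shorter, with a median of 464.5 nt against 1339 nt. Sites were found in MRPL11, MRPL17, MRPL19, MRPL24, MRPL28, MRPL35, MRPL42 and MRPS18A, all within the last exon. The windows of the 3 genes among these that were called lower in every comparison with siNT are shown on the strand of the gene (build hg38), with the site in capitals.
MRPL11, chr11:66435366-66435394, minus strand: cccttctactaAGCTCCTgaccctggctc
MRPL19, chr2:75661654-75661682, plus strand: ctcattagaagGCTCCTAtgtgccgatgc
MRPL24, chr1:156737366-156737394, minus strand: tggggcagagcAGCTCCTccccaacttct
A match of letters is a description and not evidence of pairing in these cells.

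Values were estimated read counts scaled by library. The smallest steps between values placed depth at 19.4 to 31.7 M reads per MCF10A library and 23.8 to 40.3 M per RPE-1 library (M, mega), and 3 reads corresponded to a value of 2.49 to 4.02 in MCF10A and 2.36 to 4.41 in RPE-1. Every member stood far above those levels. Of 8 basal epithelial markers, all were at 100 or more in MCF10A siNT libraries and 1 was in RPE-1, whereas of 8 retinal pigment epithelial markers 5 reached 100 in RPE-1 and 2 in MCF10A. Nuclear-encoded rRNA took 1.71 to 4.39% of the value in MCF10A libraries. In RPE-1 it took 15.1% in miR-28 replicate 1 and 4.23 to 7.20% in the other 8 libraries. With miR-28 replicate 1 left out, 18 of the 23 named members called with miR-28 in RPE-1 were still called in the same direction. Those lost were MRPL17, MRPL46, MRPL50, MRPS21 and MRPS23. The tables of the 2 lines were scaled separately, so levels are compared within a line.

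The members spanned a wide range of levels in siNT cells. Levels per kilobase (the value divided by the length of the annotated transcript) ranged 20.3-fold in MCF10A, with a median of 872, and 34.8-fold in RPE-1, with a median of 485. In MCF10A the highest were MRPL3, a large subunit protein with a bacterial counterpart, at 3469 ± 152 per kb (SD, n = 3), MRPL13 at 3395 ± 292 per kb and MRPL51 at 3032 ± 242 per kb. The ranges of MRPL3 and MRPL13 overlapped. In RPE-1 the highest was MRPL33, a small protein of the large subunit with a bacterial counterpart, at 2989 ± 511 per kb, followed by MRPL51 at 2216 ± 130 per kb and MRPL20 at 1553 ± 56.9 per kb. MRPL42 was near the bottom in both lines, at 178 ± 16.6 and 85.8 ± 10.1 per kb. Its annotated transcript of 15557 nt is far longer than the median member transcript of 1242 nt, which lowers its level on this scale. Across the 78 genes the order of levels was similar in the 2 lines (Spearman's rho 0.78, a description across genes within scaled tables).

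In MCF10A cells, mRNAs of the mitochondrial ribosome were lower with either mimic. With miR-28, 36 of 78 members fell and none rose (limma, Benjamini-Hochberg adjusted p under 0.05), which is 46.2% of the members called lower, against 12% of the 14726 genes tested called lower and 22.7% called in either direction. The log2 fold change was below 0 for 75 of 78 members, with a median of -0.35 against 0.01 over all genes. With miR-708, 29 members fell and 1, MRPL33, rose. The share called lower was 37.2%, against 17.3% of all genes called lower and 32.8% called in either direction. The members' median was -0.23 against -0.01 over all genes, and 66 of 78 lay below 0. Under scaling by library size the all-gene medians became 0.12 with miR-28 and 0.14 with miR-708. The calls became 26 lower and none higher, and 18 lower and 3 higher. The members' medians relative to all genes were -0.35 and -0.22, which such scaling can hardly change, since it shifts all genes of a library alike. Under quantile normalization, which can change them, they were -0.31 and -0.18. The calls were then 29 and 26 lower, and 0 and 2 higher. The nuclear RNAs MALAT1 and NEAT1 together took 0.614 to 3.11% of the value in the miR-28 libraries, 0.339 to 1.39% with miR-708 and 0.218 to 0.655% with siNT, and the gene listed as RNR2 took 1.81 to 2.11%, 1.41 to 1.65% and 1.49 to 1.52%. Their part in the result was not tested. Without miR-28 replicate 7, the library at 3.11%, 29 members fell and 1 rose with miR-28, with a median of -0.32.

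Summing the 78 values within a library gave the same picture. The siNT libraries of MCF10A stood at 94.5, 103 and 102% of their own mean. The miR-28 libraries stood at 74.5, 79.7 and 81.0% (mean 78.4% ± 3.45, SD, n = 3), and the miR-708 libraries at 89.7, 78.6 and 80.1% (mean 82.8% ± 6.02, SD, n = 3). No library with a mimic reached the lowest siNT library. Gene by gene, all 3 miR-28 libraries lay below all 3 siNT libraries for 51 members (65.4%, against 22.1% of all genes), and all 3 lay above for none (19.7% of all genes). With miR-708 the numbers were 34 below (43.6%, against 23.9% of all genes) and 3 above (22.6% of all genes).

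**Figure D1:**
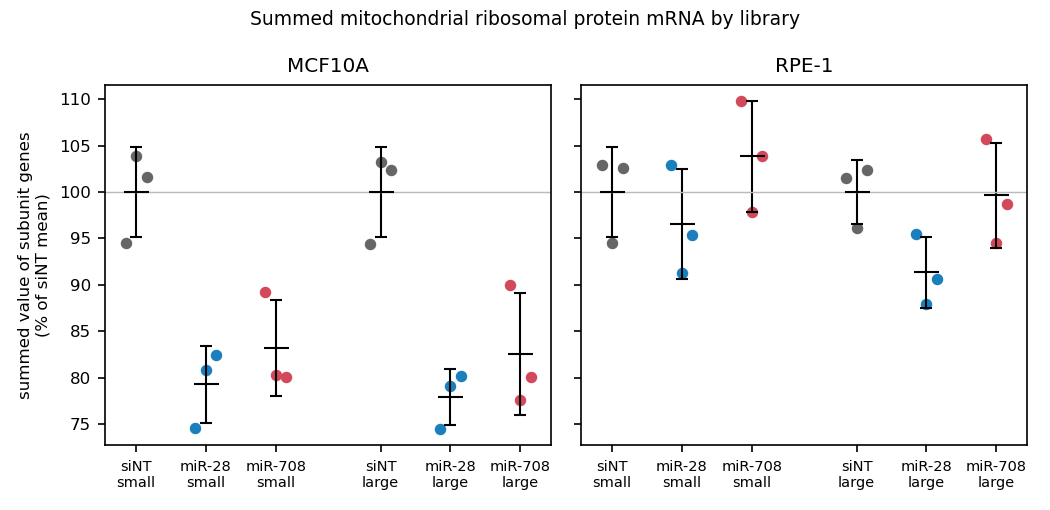
Summed value of the small subunit and large subunit genes in each library, as percent of the siNT mean of the same line; points are libraries and bars are means ± SD (n = 3). In MCF10A the libraries with either mimic lie below the siNT libraries (siNT 94.5 to 103% over all 78 genes), whereas in RPE-1 the miR-708 libraries overlap them. The miR-28 libraries of RPE-1 lie below siNT for the large subunit and overlap siNT for the small subunit.

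The decrease in MCF10A extended over both subunits. With miR-28, 13 of 27 small subunit genes and 23 of 51 large subunit genes fell, with medians of -0.38 and -0.35. With miR-708, 10 of 27 and 19 of 51 fell, with medians of -0.25 and -0.22. Among the large subunit genes with a bacterial counterpart, 16 of 30 fell with miR-28 and 14 of 30 with miR-708, and among those particular to mitochondria 7 and 5 of 21 fell. Among small subunit genes, 7 and 6 of the 15 with a bacterial counterpart fell, as did 6 and 4 of the 12 particular to mitochondria. Differences between these classes were not tested.

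MRPL12, the stalk protein of the large subunit that contacts translation factors (chr17:81703367-81707517, hg38), gave the largest decrease of any member with either mimic in MCF10A. Its values were 1679, 1822 and 1725 with siNT, 902, 949 and 1020 with miR-28, and 1206, 930 and 901 with miR-708. The groups with a mimic did not overlap the siNT group. The log2 fold changes were -0.86 ± 0.12 (SE, limma, adjusted p = 0.000907) and -0.79 ± 0.12 (limma, adjusted p = 0.000642). MRPL45, which lies at the exit of the peptide tunnel and touches the inner membrane, had values of 2018, 2181 and 2178 with siNT, 1191, 1463 and 1336 with miR-28, and 1481, 1228 and 1254 with miR-708. These groups were separate as well, with log2 fold changes of -0.68 (limma, adjusted p = 0.00193) and -0.69 (limma, adjusted p = 0.000838). MRPL48, a protein of the central protuberance of the large subunit, fell by 0.64 and 0.74 on the log2 scale (limma, adjusted p = 0.003 and 0.000642).

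In the small subunit of MCF10A, MRPS12 and MRPS27 fell with both mimics. MRPS12, the counterpart of the bacterial protein at the decoding centre, had values of 434.5, 498 and 485 with siNT, 320.4, 316 and 341 with miR-28, and 334, 317 and 280 with miR-708. All 6 libraries with a mimic were below the 3 siNT libraries, and the log2 fold changes were -0.53 ± 0.13 (SE, limma, adjusted p = 0.0126) and -0.61 (limma, adjusted p = 0.00405). Without siNT replicate 8 the adjusted p of MRPS12 for miR-28 was 0.0504. MRPS27, a pentatricopeptide repeat protein named after its values were seen, had log2 fold changes of -0.58 and -0.75 (limma, adjusted p = 0.0022 and 0.0002).

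The single member that rose in MCF10A was MRPL33. Its values were 1055, 1360 and 1315 with siNT, 1161, 1585 and 1606 with miR-28, and 1716, 1637 and 1629 with miR-708. The miR-708 libraries lay above all siNT libraries, and the miR-28 libraries overlapped them. The log2 fold change with miR-708 was 0.43 ± 0.14 (SE, limma, adjusted p = 0.0347), and this call was lost when any of 5 single libraries was left out (siNT replicate 7 or 9, or any miR-708 replicate), with an adjusted p of up to 0.132 in limma.

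The number of calls in MCF10A leaned on single libraries. With miR-28 it was 22 without siNT replicate 8 and 23 without siNT replicate 9, and with miR-708 it was 19 without miR-708 replicate 8. Of the 36 members called lower with miR-28, 8 also changed by 1.5-fold or more, as did 13 of those called with miR-708.

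In RPE-1 cells, the same genes moved in both directions. With miR-28, 24 of 78 members fell and 11 rose. The share called was 44.9%, against 46.8% of the 14527 genes tested, with 23.5% of all genes called lower and 23.3% called higher. The median was -0.12 against 0.01 over all genes. With miR-708, 19 members fell and 26 rose, a share called of 57.7% against 62.1% of all genes, of which 31.2% were lower and 30.9% higher. The median was 0.02 against 0.00 over all genes. The members' shares called in either direction were thus near those of all genes. By direction, the members' calls leaned lower with miR-28 (24 against 11) and higher with miR-708 (26 against 19), where those of all genes were split about evenly. Whether these splits differ was not tested. Scaling by library size moved the all-gene median by 0.09 with miR-28 and by 0.32 with miR-708 in RPE-1, and the split of calls moved with it, to 13 lower and 14 higher with miR-28 and to 8 lower and 42 higher with miR-708. Relative to all genes the members' medians were -0.13 and 0.02, which this scaling can hardly change. Under quantile normalization they were -0.10 and -0.0071. Without the rRNA in the library size the miR-28 median itself turned to 0.0043.

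The summed value of the 78 genes in RPE-1 was 102, 95.5 and 102% of the siNT mean in the siNT libraries. With miR-28 it was 98.1, 89.1 and 92.3% (mean 93.2% ± 4.56, SD, n = 3), and with miR-708 107, 95.7 and 100.5% (mean 101% ± 5.77, SD, n = 3). Both groups overlapped the siNT libraries in this sum. For the large subunit alone, the miR-28 libraries stood at 95.5, 87.9 and 90.7%, below its siNT libraries (96.1 to 102%). For the small subunit they stood at 103, 91.3 and 95.3% and overlapped siNT (94.5 to 103%). Beneath these sums, all 3 miR-28 libraries lay below all siNT libraries for 25 members and above them for 16 (27.5 and 26.9% of all genes did), and with miR-708 for 24 and 29 members (34.9 and 34.3% of all genes). The miR-28 result in RPE-1 includes the library with 15.1% rRNA. Without that library 21 members fell and 6 rose with miR-28, the median was -0.16, and the other 2 libraries averaged 90.7% of the siNT sum. MALAT1 and NEAT1 took 0.661 to 0.827% in the miR-28 libraries of RPE-1, 0.446 to 0.634% with miR-708 and 0.344 to 0.371% with siNT, and their part in the result was not tested. The count was 18 without siNT replicate 1, and 23 without siNT replicate 2 or miR-28 replicate 2.

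**Figure D2:**
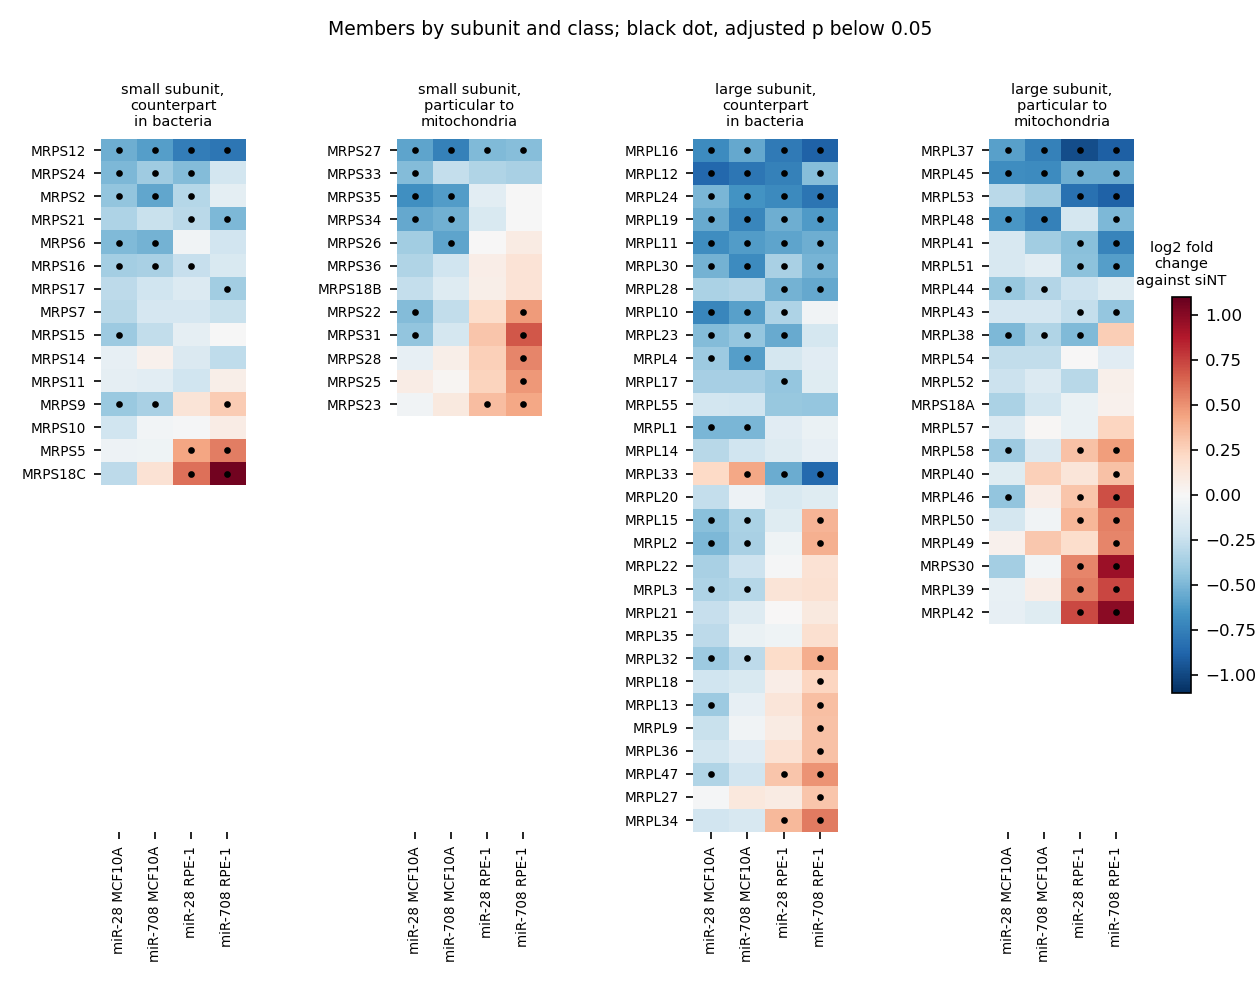
Log2 fold change against siNT of each of the 78 members (rows, by subunit and by the presence of a bacterial counterpart) for miR-28 and miR-708 in MCF10A and RPE-1 (columns), with a black dot for each call (limma, adjusted p under 0.05). The MCF10A columns are mostly below 0 (75 and 66 of 78 members), and the RPE-1 columns hold calls in both directions (24 lower and 11 higher with miR-28, 19 lower and 26 higher with miR-708; 8 lower and 42 higher with miR-708 after scaling by library size).

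A group of large subunit genes fell in RPE-1 as they did in MCF10A. MRPL37, a protein particular to mitochondria (chr1:54200167-54225489, hg38), had values of 2632, 2717 and 2468 in MCF10A siNT libraries, 1681, 1725 and 1768 with miR-28, and 1641, 1506 and 1517 with miR-708. In RPE-1 it stood at 1862, 1740 and 1735 with siNT, 891, 944 and 876 with miR-28, and 971, 888 and 1013 with miR-708. No library with a mimic reached the siNT range in either line. The log2 fold changes were -0.59 ± 0.08 and -0.74 in MCF10A (limma, adjusted p = 0.00107 and 0.000128), and -0.98 ± 0.08 and -0.89 in RPE-1 (limma, adjusted p = 1.11e-05 and 8.24e-06). The change of MRPL37 in RPE-1 minus that in MCF10A was -0.38 ± 0.12 with miR-28, which passed the test (limma, adjusted p = 0.0236), and -0.15 with miR-708, which did not (limma, adjusted p = 0.33). Leaving out any of 4 libraries ended the former call (MCF10A siNT or miR-28 replicate 9, RPE-1 siNT replicate 1 or miR-28 replicate 3), with an adjusted p of up to 0.0709 in limma.

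MRPL16, the counterpart of a bacterial protein near the tRNA binding sites, had values of 660, 541 and 663 in RPE-1 siNT libraries, 404, 341.95 and 338 with miR-28, and 353, 315 and 330.998 with miR-708. The groups were separate, with log2 fold changes of -0.78 ± 0.12 and -0.89 (limma, adjusted p = 0.000517 and 0.000103). In MCF10A, its log2 fold changes were -0.69 ± 0.10 and -0.56 (limma, adjusted p = 0.00125 and 0.00196). MRPS12 behaved alike in the small subunit, with RPE-1 values of 257, 242 and 230.4 with siNT, 149, 139 and 141 with miR-28, and 144, 114 and 166 with miR-708. All libraries with a mimic lay below the siNT libraries, and the log2 fold changes were -0.76 ± 0.16 and -0.79 (limma, adjusted p = 0.00251 and 0.00117). MRPL12 fell in RPE-1 by 0.74 and 0.47 on the log2 scale (limma, adjusted p = 0.000252 and 0.00256), from 875, 854 and 869 with siNT to 475.5, 522 and 558 with miR-28 and 652, 559 and 676.5 with miR-708.

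MRPL53, which is particular to mitochondria, fell in RPE-1, from 387, 353 and 368 with siNT to 243, 176 and 212 with miR-28 and 193, 188 and 214 with miR-708. Its log2 fold changes were -0.82 ± 0.14 and -0.89 (limma, adjusted p = 0.000862 and 0.000258). In MCF10A its values of -0.30 and -0.39 did not pass the test, and the difference between the lines did not either (limma, adjusted p = 0.12 and 0.0999). MRPL24, MRPL19 and MRPL11, which hold the seed matches printed above, fell in all comparisons with siNT. Their log2 fold changes with miR-28 and miR-708 were -0.51 and -0.66 for MRPL24, -0.56 and -0.72 for MRPL19, and -0.69 and -0.61 for MRPL11 in MCF10A. In RPE-1 they were -0.70 and -0.80, -0.54 and -0.62, and -0.58 and -0.54. Under scaling by library size, the calls for miR-708 in RPE-1 were lost for MRPL12, MRPL45, MRPL48, MRPL11, MRPL28, MRPL51 and MRPS21 (limma, adjusted p from 0.111 to 0.291).

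Members that rose in RPE-1 included MRPL42, MRPS30, MRPS18C and MRPL39. MRPL42, a protein particular to mitochondria (chr12:93467514-93516214, hg38), had RPE-1 values of 1247, 1241 and 1517 with siNT, 2052, 2535 and 2056 with miR-28, and 2609, 2717 and 2604 with miR-708. The 3 groups did not overlap, and the log2 fold changes were 0.73 ± 0.11 and 0.99 (limma, adjusted p = 0.0004 and 2.4e-05). In MCF10A the groups overlapped, at 2566, 2691 and 3062 with siNT, 3167, 2460 and 2255 with miR-28, and 2492, 2697 and 2372 with miR-708. MRPL42 holds 2 of the seed sites in its long 3′ UTR, so the presence of a site and the direction of change did not coincide for this gene.

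MRPS30 (chr5:44808947-44815514, hg38), a large subunit protein despite its symbol, had RPE-1 values of 489, 512 and 465 with siNT, 703.5, 730 and 698 with miR-28, and 922, 886 and 1009 with miR-708. The 3 groups were separate and ordered, with log2 fold changes of 0.54 ± 0.09 and 0.94 (limma, adjusted p = 0.000758 and 9.39e-06). In MCF10A its values were 1379, 1174 and 1273 with siNT, 1038, 1015 and 891 with miR-28, and 1478, 1066 and 1222 with miR-708. The miR-28 libraries lay below siNT there, without passing the test (limma, adjusted p = 0.0537).

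MRPS18C, the counterpart of a bacterial small subunit protein (chr4:83456058-83462298, hg38), had RPE-1 values of 503, 425 and 469 with siNT, 621, 816 and 694 with miR-28, and 1023, 940 and 959 with miR-708. The groups were separate, with log2 fold changes of 0.60 ± 0.12 and 1.07 (limma, adjusted p = 0.00181 and 2.22e-05). Of its 1550 exon bases, 1296 are shared with ABRAXAS1 on the opposite strand, and the sources used here do not state whether reads were assigned by strand. ABRAXAS1 itself gave 0.32 and 0.37 in RPE-1 (limma, adjusted p = 0.138 and 0.0747). MRPL39 rose from 538, 474 and 590 to 913, 694 and 772 with miR-28 and to 977, 791 and 898 with miR-708, by log2 fold changes of 0.57 ± 0.13 and 0.73 (limma, adjusted p = 0.005 and 0.000637). MRPS5, a small subunit protein with a bacterial counterpart, named after its values were seen, rose by 0.43 and 0.56 on the log2 scale in RPE-1, with no library overlapping siNT.

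**Figure D3:**
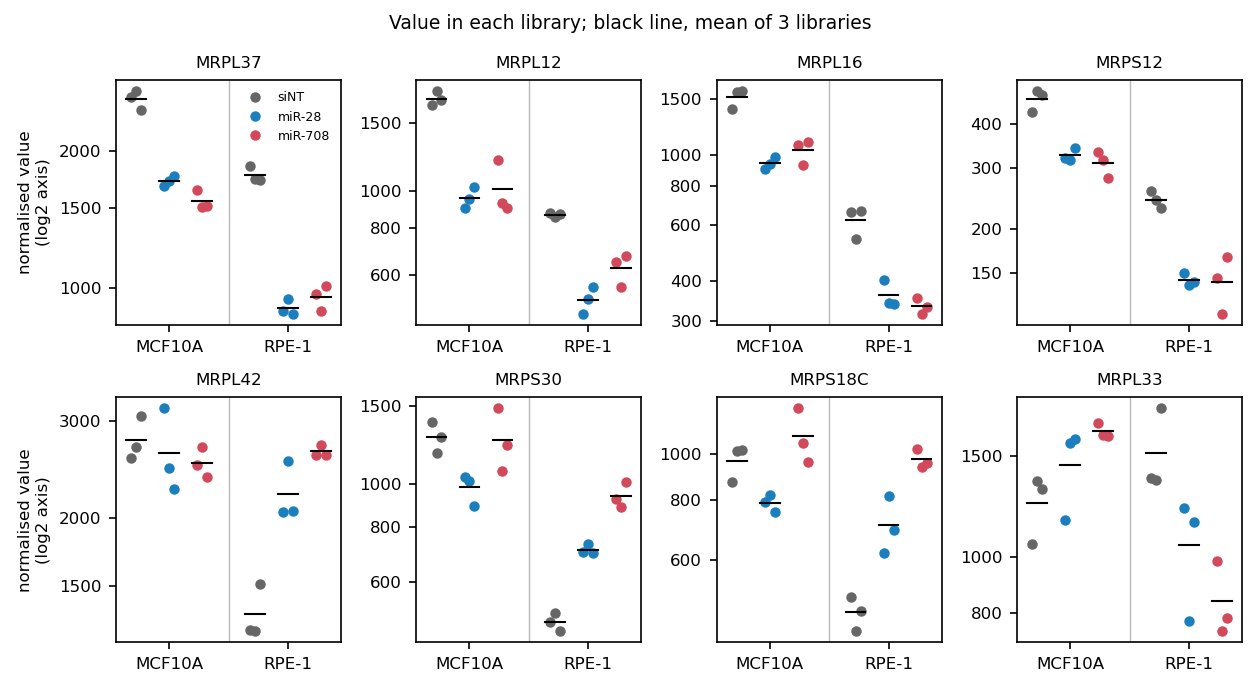
Values of 8 members in all 18 libraries on a log2 axis, with points for libraries and the groups in the order siNT, miR-28 and miR-708 within each line; the lines were scaled separately and are compared within a line only. MRPL37, MRPL12, MRPL16 and MRPS12 are lower with both mimics in either line, whereas MRPL42, MRPS30 and MRPS18C are higher in RPE-1 and MRPL33 is lower in RPE-1.

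The responses of the 2 lines were compared directly as the fold change in RPE-1 minus that in MCF10A. For miR-28 this difference was called for 21 members, 19 higher in RPE-1 and 2 lower (MRPL33 and MRPL37), against 23.4% of the 13339 genes tested in both lines called in either direction, 12.1% higher and 11.3% lower. Without the RPE-1 library with 15.1% rRNA 19 members were called. Its median was 0.23 against -0.01 over all genes, and 62 of 78 members lay above 0. For miR-708 it was called for 28 members, 27 higher and 1 lower (MRPL33), against 39.8% of all genes called, 20.2% higher and 19.6% lower. The median was 0.26 against -0.02 over all genes, with 61 of 78 above 0. Under scaling by library size the median over all genes became 0.15 for miR-708 and 43 members were called, 42 of them higher. Relative to all genes the members' medians were 0.24 and 0.28, which this scaling can hardly change. Under quantile normalization they were 0.17 and 0.20, with 17 and 26 members called.

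The largest positive differences belonged to genes that rose in RPE-1. For MRPS30 the difference was 0.92 ± 0.16 with miR-28 (SE, limma, adjusted p = 0.000408) and 0.97 with miR-708 (limma, adjusted p = 6.73e-05). For MRPS18C it was 0.89 ± 0.17 and 0.90 (limma, adjusted p = 0.000664 and 0.000188), and for MRPL42 0.82 ± 0.17 and 1.13 (limma, adjusted p = 0.00162 and 2.26e-05). ABRAXAS1, which shares exon bases with MRPS18C, gave 0.43 and 0.68 (limma, adjusted p = 0.171 and 0.0197). MRPS31, a small subunit protein particular to mitochondria, fell with miR-28 in MCF10A by 0.43 on the log2 scale (limma, adjusted p = 0.0134; up to 0.0528 without siNT replicate 8 or 9) and rose with miR-708 in RPE-1 by 0.68 (limma, adjusted p = 0.000465), with differences of 0.74 and 0.87 (limma, adjusted p = 0.002 and 0.000161). A pseudogene, MRPS31P5, is listed too, and how reads were divided between the copies is uncertain. Its own difference was 0.96 for miR-708 (limma, adjusted p = 0.00426).

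MRPL33 went the other way. In RPE-1 it had values of 1374, 1364 and 1818 with siNT, 1222, 777 and 1154 with miR-28, and 986, 744 and 785 with miR-708. Both mimics gave libraries below all siNT libraries, with log2 fold changes of -0.55 ± 0.18 and -0.85 (limma, adjusted p = 0.032 and 0.00216), against 0.22 and 0.43 in MCF10A. The differences between the lines were -0.76 ± 0.23 and -1.28 (limma, adjusted p = 0.0217 and 0.00021). The miR-28 calls of MRPL33 rested on single libraries: without RPE-1 siNT replicate 3 or miR-28 replicate 2 both were lost, and the difference was also lost without MCF10A siNT replicate 7 or miR-28 replicate 9 (limma, adjusted p of up to 0.116 and 0.0646). Under scaling by library size the adjusted p of its miR-28 decrease in RPE-1 was 0.0581.

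By class, small subunit genes particular to mitochondria had the highest medians of this difference. With miR-28, 12 of 12 lay above 0 and 4 were called, with a median of 0.38, and with miR-708, 11 of 12 lay above 0 and 6 were called, with a median of 0.47. The 12 include MRPS36, whose differences of 0.40 and 0.37 were not called. The small subunit genes with a bacterial counterpart had medians of 0.13 and 0.19, with 3 and 4 of 15 called higher. Of all genes tested in both lines, 12.1% were called higher with miR-28 and 20.2% with miR-708. In the large subunit, genes with a bacterial counterpart had medians of 0.23 and 0.29 and those particular to mitochondria 0.20 and 0.22. Whether the classes differ was not tested. MRPS22, a small subunit protein particular to mitochondria that was named after its values were seen, gave differences of 0.66 and 0.74 (limma, adjusted p = 0.0026 and 0.0004).

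Members called with the same mimic in both lines were compared as shares of each list. With miR-28, 16 members fell in both lines, 44.4% of those that fell in MCF10A and 66.7% of those that fell in RPE-1. Without the RPE-1 library with 15.1% rRNA the number was 15. With miR-708, 11 fell in both, 37.9% and 57.9% of the lists. Over the 13339 genes tested in both lines, 56.3% of those that fell in MCF10A with miR-28 and 29.6% of those that fell in RPE-1 fell in both, and 61.1% and 34.7% with miR-708. The members' shares were lower than those of all genes when counted from MCF10A and higher when counted from RPE-1. Such shares depend on the length of the lists. With miR-28, 36 of 78 members and 1655 of 13339 genes fell in MCF10A, and 24 and 3148 fell in RPE-1. With miR-708, 29 members and 2365 genes fell in MCF10A, and 19 and 4156 fell in RPE-1. The shares alone therefore do not tell whether members overlapped more or less than all genes, which was not tested. With miR-28, MRPL46, MRPL47 and MRPL58 fell in MCF10A and rose in RPE-1, and with miR-708 MRPL2, MRPL15, MRPL32 and MRPS9 did so. For MRPL46 the RPE-1 call was lost when any of the 9 libraries was left out and the MCF10A call when any of 6 was (limma, adjusted p of up to 0.165 and 0.147), and the MCF10A calls of MRPL2 and MRPL15 with miR-708 were lost under scaling by library size. They were also lost without siNT replicate 8 or 9 or miR-708 replicate 8 or 9, and that of MRPL15 without siNT replicate 7 as well (limma, adjusted p of up to 0.168 and 0.123 over all alternatives). The RPE-1 rise of MRPL2 was lost without siNT replicate 3 or miR-708 replicate 3 (limma, adjusted p of up to 0.0574). Across the 78 members, fold changes in the 2 lines correlated with Pearson's r of 0.47 for miR-28 and 0.56 for miR-708 (Spearman's rho 0.48 and 0.61). This is a description over genes that share their libraries within a line, whereas the lines share no library. The spread of fold changes over members was wider in RPE-1, with an SD of 0.36 against 0.20 for miR-28 and 0.47 against 0.27 for miR-708.

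**Figure D4:**
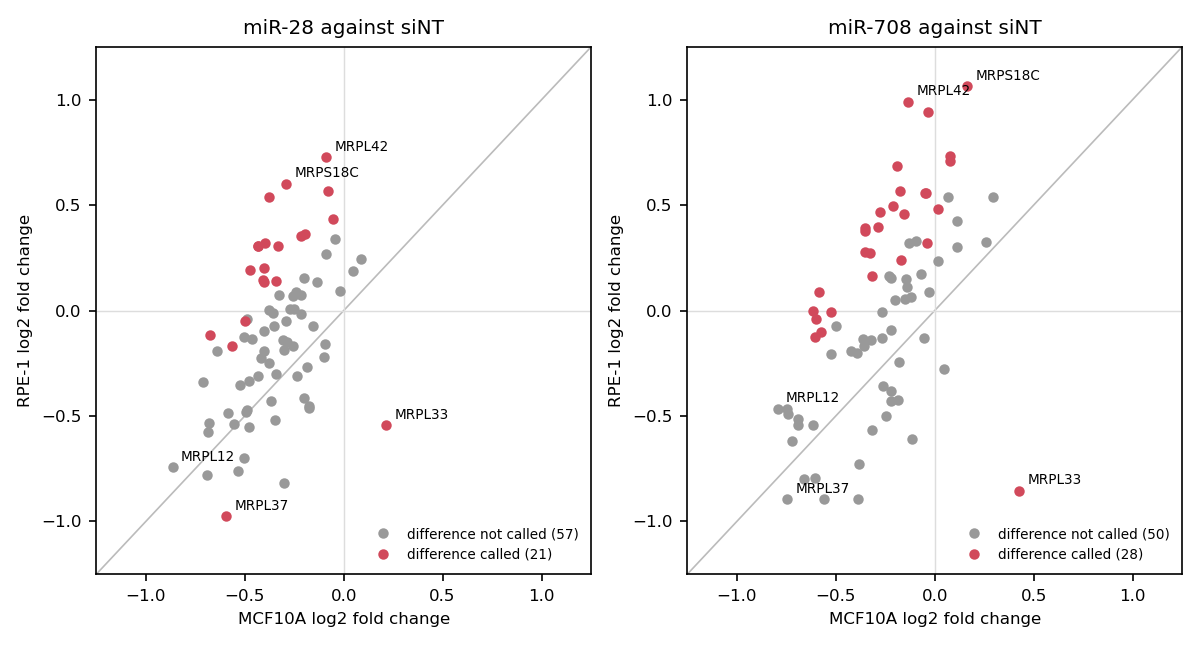
Log2 fold change against siNT in MCF10A (horizontal) and in RPE-1 (vertical) for each of the 78 members, in one panel for each mimic, with members whose response differed between the lines in red (limma, adjusted p under 0.05; 21 with miR-28 and 28 with miR-708). Most red points lie above the diagonal (19 and 27), and MRPL33 lies below it in both panels.

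The mimics were also compared with each other. In MCF10A, limma called no member between miR-708 and miR-28, where it called 1.55% of all genes, 1.28% higher and 0.265% lower. At an unadjusted p under 0.05 the members numbered 7 of 78 (8.97%), against 2320 of 14726 genes (15.8%). A fit with the replicate number as a block called 2 members, both higher with miR-708. The median difference was 0.09, with 59 of 78 members above 0. In RPE-1, 8 members were called, all higher with miR-708 (MRPL2, MRPL15, MRPL38, MRPL46, MRPL49, MRPS18C, MRPS30 and MRPS31), against 21.2% of all genes called and 9.88% called higher. The median difference was 0.12 and 57 of 78 members lay above 0. Scaling by library size moved the all-gene median by 0.23 in this comparison and raised the count to 45, all higher with miR-708. The count was 3 without miR-708 replicate 3, 4 without miR-708 replicate 1, 4 without miR-28 replicate 3 and 7 without miR-28 replicate 1, the library with 15.1% rRNA.

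MRPL38, a protein of the central protuberance, showed the largest difference between the mimics of any member in RPE-1. In RPE-1 its values were 454, 516 and 412 with siNT, 285, 316 and 394 with miR-28, and 546, 546 and 574 with miR-708. The miR-28 libraries lay below and the miR-708 libraries above all siNT libraries. The miR-28 change of -0.48 ± 0.14 passed the test (limma, adjusted p = 0.0139; 0.0601 without siNT replicate 2), the miR-708 change of 0.27 did not (limma, adjusted p = 0.0998), and the difference between the mimics was 0.76 ± 0.14 (limma, adjusted p = 0.00426). In MCF10A MRPL38 fell with both mimics, by log2 values of -0.49 and -0.33 (limma, adjusted p = 0.00959 and 0.0403), and the latter call was lost under scaling by library size and without any of 7 single libraries (limma, adjusted p of up to 0.208).

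MRPL15, the counterpart of a bacterial large subunit protein, had RPE-1 values of 967, 850.3 and 999 with siNT, 938, 852 and 777 with miR-28, and 1339, 1162 and 1152 with miR-708. The miR-28 libraries overlapped siNT and the miR-708 libraries lay above both groups. The difference between the mimics was 0.51 ± 0.11 (SE, limma, adjusted p = 0.00838). MRPS30 and MRPS18C differed by 0.40 ± 0.09 and 0.46 (limma, adjusted p = 0.0114 and 0.0185). The calls of MRPL38 and MRPL15 were kept in every alternative that was run, whereas the adjusted p of MRPS30 was 0.0598 without miR-708 replicate 3 and the call of MRPS18C was lost in 4 alternatives.

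Members with and without a seed site were set side by side without a test, since only 8 held one. In MCF10A the medians were -0.36 with a site and -0.34 without one for miR-28, and -0.34 and -0.22 for miR-708. In RPE-1 they were -0.47 and -0.11 for miR-28, and -0.34 and 0.06 for miR-708. Of the 36 members that fell in MCF10A with miR-28, 33 held no site of 7 bases in the annotated 3′ UTR, against 70 of all 78 members. No conclusion about direct targeting follows from these letters.

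The promoter windows of RefSeq (GRCh38.p14, 250 bases before to 50 bases after the start) matched 69 of the 78 members. The unmatched genes were MRPL2, MRPL10, MRPL13, MRPL15, MRPL21, MRPL23, MRPL35, MRPS28 and MRPS36. On either strand, CCGGAAG, the core recognized by ETS factors such as GABPA, was found in 29 of 69 windows (42.0%, against 17.8% of the windows of tested genes and 10.7% of all windows). A form of the YY1 motif, the 11 bases in capitals in the MRPS30 window below, was found in 10 (14.5%, against 1.81% and 0.916%), and a palindromic NRF1 motif, the 10 bases in capitals in the MRPL17 window, in 1 (1.45%, against 2.14% and 1.36%). None of these 3 motifs contains another. Windows of 30 bases on the strand of the gene are shown for MRPS30 and MRPL38, which differed between the mimics, for MRPS12 and MRPL53, which fell in RPE-1, and for the only NRF1 match.
MRPS30, chr5:44808951-44808980: tcgcgggcaAAGATGGCGGCggccaggtgt
MRPL38, chr17:75904858-75904887: gccggagggAAGATGGCGGCgccctggtgg
MRPS12, chr19:38930928-38930957: acggatagcgcCCGGAAGaggctagaagct
MRPL53, chr2:74472734-74472763: gcagccggcggCCGGAAGtctatcccgcag
MRPL17, chr11:6683402-6683431: aggctctgatGCGCATGCGCaaacacgttc
With miR-708 in RPE-1 the median fold change was 0.22 for the 10 members with the YY1 motif and -0.12 for the 59 without it, and in MCF10A it was -0.14 and -0.27. With miR-28 the medians with and without it were 0.03 and -0.17 in RPE-1 and -0.35 and -0.34 in MCF10A. For the ETS motif, held by 29 members, the medians with and without it differed little, at -0.01 and -0.04 with miR-708 and -0.17 and -0.12 with miR-28 in RPE-1, and at -0.25 and -0.23 with miR-708 and -0.34 and -0.36 with miR-28 in MCF10A. These medians are descriptions of letters in a window.

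Other genes of mitochondrial translation gave a mixed picture, and those named here were chosen after their values were seen. Among 28 factors of mitoribosome assembly, 8 fell and 1 rose with miR-28 in MCF10A, and 11 fell and 1 rose with miR-708. In RPE-1, 7 fell and 5 rose with miR-28, and 8 fell and 8 rose with miR-708. As shares, 28.6 and 39.3% fell in MCF10A, where 12 and 17.3% of all genes did. In RPE-1, 25 and 28.6% fell and 17.9 and 28.6% rose, near the shares of all genes (23.5 and 31.2% lower, 23.3 and 30.9% higher). ERAL1, a GTPase that chaperones the rRNA of the small subunit, had log2 fold changes of -0.95 and -1.03 in MCF10A and -1.41 and -1.60 in RPE-1 (limma, adjusted p from 1.38e-06 to 0.000612). MRM2, a methyltransferase of the large subunit rRNA, gave -0.87 and -0.98 in MCF10A and -1.49 and -1.39 in RPE-1. RPUSD3, a pseudouridine synthase, gave -0.66 and -0.79, and -1.53 and -1.59. NSUN4 and GTPBP10, which act in assembly, rose in RPE-1, by 0.75 and 0.88 and by 0.63 and 0.98.

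Of 16 translation factors, 5 and 6 fell and none rose in MCF10A with miR-28 and miR-708. In RPE-1 3 fell and 4 rose with miR-28, and 2 fell and 6 rose with miR-708. Without the RPE-1 library with 15.1% rRNA, 3 factors fell and 2 rose with miR-28. The share that fell in MCF10A was 31.2 and 37.5%, and in RPE-1 18.8 and 12.5% fell and 25 and 37.5% rose, to be read against the shares of all genes given above. TUFM, the elongation factor that delivers tRNA, fell in every comparison with siNT, by log2 fold changes of -0.50 and -0.69 in MCF10A and -0.34 and -0.38 in RPE-1. MTIF2, an initiation factor, rose in RPE-1 by 0.34 and 0.56. Of 22 mitochondrial aminoacyl-tRNA synthetases, 9 fell and 1 rose with miR-28 in MCF10A, 11 fell with miR-708, and in RPE-1 6 fell and 2 rose with miR-28 and 9 fell and 7 rose with miR-708. These were 40.9 and 50% lower in MCF10A, 27.3 and 40.9% lower in RPE-1, and 9.09 and 31.8% higher in RPE-1, where without the library with 15.1% rRNA 6 fell and 1 rose with miR-28. YARS2 fell in each, by -0.74 and -0.70 in MCF10A and -0.65 and -0.59 in RPE-1. Of 5 mitoribosomal proteins with other symbols, DAP3, a GTP-binding protein of the small subunit, was called lower in each comparison with siNT, at -0.49, -0.52, -0.45 and -0.36.

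Genes of mitochondrial DNA expression and its regulators form a short list. In MCF10A 3 and 6 of 16 fell and none rose, whereas in RPE-1 6 and 7 of 15 rose (40.0 and 46.7%, against 23.3 and 30.9% of all genes called higher) and 2 and 2 fell. The difference from all genes was not tested. TFAM, which packages mitochondrial DNA and starts its transcription, gave -0.36 and -0.42 in MCF10A (limma, adjusted p = 0.0664 and 0.0267) and 0.81 and 0.95 in RPE-1 (limma, adjusted p = 0.000229 and 3.38e-05). PPARGC1B, a coactivator of mitochondrial gene programmes, rose from a mean value of 39.6 ± 8.54 with siNT to 193 ± 59.5 with miR-28 and 217 ± 28.04 with miR-708 in RPE-1 (SD, n = 3). In MCF10A it fell, from 1912 ± 179 to 1299 ± 307.4 and 1144 ± 195.

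The cytosolic ribosomal proteins, the other set of ribosomal genes in the nucleus, were read as a background for the members. Of 79 such genes, 28 fell with miR-28 and 62 with miR-708 in MCF10A, with medians of -0.35 and -0.55. In RPE-1, 76 and 79 fell, with medians of -0.77 and -1.16. The difference between the lines was called lower in RPE-1 for 16 and 51 of them and higher for none, with medians of -0.40 and -0.61. For the mitochondrial ribosomal proteins those medians were 0.23 and 0.26. The difference between the 2 sets was not tested.

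**Figure D5:**
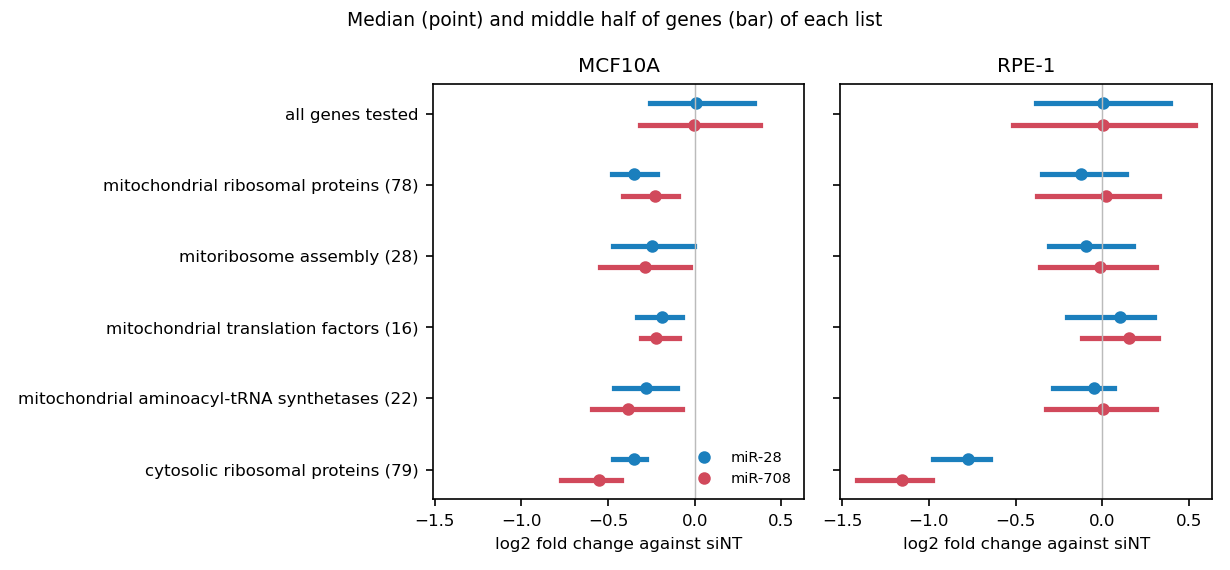
Median log2 fold change against siNT (points) and quartile range (bars) over the genes of each list, for both mimics in both lines. The mitochondrial ribosomal proteins lie at -0.35 and -0.23 in MCF10A and at -0.12 and 0.02 in RPE-1 (under library size scaling without rRNA these are 0.0043 and 0.32), whereas the cytosolic ribosomal proteins lie at -0.35 and -0.55 in MCF10A and at -0.77 and -1.16 in RPE-1.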

How the data were processed

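PolyA+ RNA of 2 lines was sequenced in paired-end mode. Per the labels and methods, the authors aligned reads with HISAT2 2.1.0 to hg38 and quantified RefSeq transcripts in Partek. The authors deposited, for each line, a table of normalized signal, estimated read counts per gene that had been scaled by median-of-ratios size factors. The values are not whole reads, so no count model was used. Tables of the authors' own comparisons (fold changes, p-values and group means) were not used. Strandedness is not given in the sources used here.

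Values of each line were tested as log2(value + 1) with limma 3.58.1 (R 4.3.3) over all 9 libraries with group means and a trended prior, on genes that reached a value of 10 in 3 or more libraries, and p-values were adjusted over all genes by the Benjamini-Hochberg method. Calls are adjusted p under 0.05, and fold changes are on the log2(value + 1) scale, which understates those of low genes. The difference between lines is the difference of the fold changes, with its SE from both fits and Welch-Satterthwaite degrees of freedom, tested for 13339 genes. The script was tested on simulated data. The step between the lowest values gave the depth per library (19.4 to 40.3 M reads), and floors cover counting error only, since reads carry no molecular identifiers. Fewer transcripts in each cell and a smaller share of cells with the transcript cannot be told apart in bulk RNA.

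The members, lists and tests were chosen with earlier results of these data known. Members named are, in each line, those with the largest mean fold changes over both mimics, among members called with both in the same direction. Also named are those with the largest called differences between the mimics and those whose response differed most between lines. The rest are those with seed sites and those with the highest and lowest levels per kilobase. Other genes are said to have been named after their values were seen. Lengths and 3′ UTRs come from the canonical transcripts of GENCODE release 44, positions and promoters from RefSeq (GRCh38.p14). The sequence of hsa-miR-28-5p is from the study's oligonucleotide list and that of hsa-miR-708-5p from RefSeq. Replicate numbers were taken from the labels. In MCF10A, deviations from group means correlated over 0.1 between each mimic library and the siNT library of the same number (0.11 to 0.30). Those between the mimics in RPE-1 did so as well (0.13 to 0.28). Libraries of different numbers were not compared in this way, so these values do not settle whether numbers pair samples. The main tests held no replicate block, and counts with a block are given with the dependence on the processing.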

Additional observations from a re-analysis of the deposited data

Results flagged for a closer look

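A response that differed between the 2 lines, by the test of the difference itself, marked 21 of 78 members with miR-28 and 28 of 78 with miR-708 (limma, Benjamini-Hochberg adjusted p under 0.05). Of the 13339 genes tested in both lines, 23.4% were called with miR-28 and 39.8% with miR-708, so these counts alone do not set the members apart. Each named member below is given by its fold change in RPE-1 minus that in MCF10A on the log2 scale.

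With miR-28 the difference was negative for MRPL33 (-0.76) and MRPL37 (-0.38). It was positive for MRPL2 (0.45), MRPL3 (0.48), MRPL13 (0.54), MRPL50 (0.56), MRPL39 (0.65), MRPL46 (0.74), MRPS31 (0.74), MRPL42 (0.82), MRPS18C (0.89) and MRPS30 (0.92). With miR-708 it was negative for MRPL33 (-1.28). It was positive for MRPS25 (0.46), MRPL3 (0.48), MRPL50 (0.60), MRPL38 (0.60), MRPL46 (0.63), MRPL39 (0.66), MRPL15 (0.73), MRPL2 (0.75), MRPS31 (0.87), MRPS18C (0.90), MRPS30 (0.97) and MRPL42 (1.13). The miR-28 difference of MRPL2, with an adjusted p of 0.0496 in limma, was lost in 15 of 18 fits that left out 1 library, with a replicate block (limma, adjusted p = 0.0588) and under library size scaling (limma, adjusted p = 0.0826). That of MRPL13 was lost in 6 and that of MRPL3 in 4 of the 18 fits (limma, adjusted p of up to 0.0851 and 0.0818), and those of MRPL37 and MRPL33 in 4 each. The miR-708 difference of MRPS25 was lost in 5, and that of MRPL3 in 1, without RPE-1 miR-708 replicate 1 (limma, adjusted p = 0.0509). In RPE-1 the miR-28 fold changes include the library with 15.1% rRNA, and without it 19 members were called for miR-28.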

How the results depend on the processing

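Calls of named members kept their direction in every alternative. Of 115 such calls, 72 stayed past the threshold throughout. Leaving out 1 library at a time gave 22 to 41 calls (miR-28) and 19 to 34 (miR-708) in MCF10A, 18 to 34 and 39 to 48 in RPE-1, 3 to 10 between the mimics in RPE-1, and 16 to 22 and 24 to 35 for the differences between lines. Requiring 1.5-fold as well left 8 and 13 calls in MCF10A, 8 and 15 in RPE-1, 1 between the mimics in RPE-1 and 11 for the miR-28 difference.

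Under library size scaling the median was -0.24 (miR-28) and -0.083 (miR-708) in MCF10A, 0.34 with miR-708 in RPE-1 and 0.35 between the mimics there, with 45 calls, and 43 members were called for the miR-708 difference. Without rRNA in the library size it was -0.23 with miR-28 in MCF10A, 0.0043 with miR-28 in RPE-1 (reversed), 0.32 with miR-708 in RPE-1 and 0.29 between the mimics there, with 31 calls. Higher calls made up 3.33, 31.4 and 57.8% of calls (miR-708 in MCF10A, miR-28 and miR-708 in RPE-1) and 14.3, 51.9 and 84.0% under library size scaling.

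A replicate block gave 2 calls between the mimics in MCF10A, against none without it. In the other comparisons it gave 41 and 32 calls in MCF10A, 36, 46 and 8 in RPE-1, and 22 and 31 for the differences. Among named members it ended 1 call, the miR-28 difference of MRPL2. Deviations of same-numbered libraries correlated by 0.025 to 0.18 between the mimics in MCF10A and by 0.021 to 0.15 between mimic and siNT in RPE-1, not all over 0.1.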

Other observations

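Neither transcript length nor level ordered the members' fold changes strongly. Across the 78 genes, Spearman's rho between the fold change and the transcript length was -0.07 and -0.02 in MCF10A (miR-28 and miR-708) and 0.11 and 0.16 in RPE-1. Against the siNT level per kilobase it was -0.20 and -0.13 in MCF10A and -0.24 and -0.31 in RPE-1. These are descriptions across genes of the same libraries, and the siNT level enters both measures of the latter relation.

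Besides MRPS18C, 7 members share exon bases with a listed gene on the opposite strand (MRPS7, MRPS18A, MRPS25, MRPS34, MRPL20, MRPL47 and MRPL49), and MRPS6 does so with a gene on its own strand. How reads were divided between them is not given in the sources used here. In RPE-1, NR2C2, which overlaps MRPS25, gave log2 fold changes of 0.39 and 0.58, with a difference between the lines of 0.37 for miR-708. ACTL6A, which overlaps MRPL47, gave 0.48 and 0.69, with differences of 0.70 and 0.84. SYVN1, which overlaps MRPL49, went the other way, at -0.49 and -0.68 against 0.19 and 0.54 for MRPL49. The part of such overlaps in the members' calls was not tested.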
